A study of Mus musculus with 12 samples.

Results

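The genes described here are 35 mouse genes of the ATF4 amino acid and stress response, chosen by gene symbol as known members of the pathway, with a rule that uses no measured value. They and the further gene lists were nevertheless put together with earlier results of these data known, so that a pattern they show is a description and not independent evidence. All 35 were found among the 42450 genes of the count table, and 34 of them were among the 19410 genes with enough counts to be tested. They were measured by RNA-seq of polyA+ RNA in wild-type E14tg2a.4 cells, a male mouse embryonic stem cell (mESC) line, in 12 libraries. The cells received 50 nM of siRNA duplexes directed at Srrm2 (Srrm2-KD) or at Gl2, the firefly luciferase sequence that has no target in mouse cells (Gl2-KD, the control). They were collected at 24 h, or transfected again and collected at 72 h, so that a library of 72 h carries 2 rounds of the same siRNA. Each of the 4 groups had 3 libraries, from experiments 1, 2 and 3, which the design calls independent. All cells were maintained with LIF and grown in serum-free ESGRO medium for 24 h or 72 h before collection. Srrm2 encodes a splicing-associated scaffold protein of nuclear speckles. The study used the siRNA to look for the earliest changes in splicing and in gene expression when Srrm2 is reduced. All groups are siRNA-transfected cultures of 1 line, so that there is no untransfected group among the 12 libraries.

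ATF4 is a transcription factor whose synthesis rises when a kinase phosphorylates the initiation factor eIF2alpha. Among those kinases, GCN2 responds to amino acid shortage and PERK to unfolded proteins in the endoplasmic reticulum. ATF4 pairs with C/EBP family proteins on a composite DNA element and switches on genes for amino acid transport, for the synthesis of asparagine, serine and glycine, for one-carbon metabolism and for the charging of tRNAs. It also switches on further regulators, of which Ddit3 (CHOP), Atf3, Trib3 and Nupr1 shape or end the response. Because ATF4 is controlled mainly through its translation, the abundance of its own mRNA need not follow the activity of the protein.

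The composite element, TGATGNAA, was looked for on both strands in RefSeq promoter windows that run from 250 bases before to 50 bases after the start of a gene. It was found in 11 of the 29 members with a window (37.9%, exact binomial 95% interval 20.7 to 57.7%, counting error only), beside 4.51% of all 27025 genes with a window. Its core TGATG alone, which every full match contains, was in 16 of 29 member windows (55.2%) and in 42.9% of all windows. A match describes letters and is not evidence of binding. The members were picked as known genes of the ATF4 response, so that a high share could be foreseen and is no test of enrichment. Of the member windows with a match, 6 (build GRCm38.p6) are printed 5′ to 3′ on the strand of the gene, with the match in capitals. They belong to genes whose time courses are followed further on. The first 4 belong to genes whose change between 24 h and 72 h differed between experiments, as did that of Asns, while Slc7a11 is shown as a gene with a pair of matches whose change did not pass that test.
Nupr1, chr7:126625553-126625600, minus strand: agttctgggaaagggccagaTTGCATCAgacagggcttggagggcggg
Chac1, chr2:119351029-119351076, plus strand: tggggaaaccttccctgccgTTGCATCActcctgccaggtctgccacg
Vldlr, chr19:27216800-27216847, plus strand: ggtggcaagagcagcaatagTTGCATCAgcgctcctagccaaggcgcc
Pck2, chr14:55540143-55540190, plus strand: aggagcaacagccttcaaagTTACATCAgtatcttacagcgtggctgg
Asns, chr6:7693210-7693252, minus strand: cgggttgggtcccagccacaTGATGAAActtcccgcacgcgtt
Slc7a11, chr3:50443652-50443699, minus strand: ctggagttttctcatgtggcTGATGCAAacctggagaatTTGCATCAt
Nupr1, Chac1 and Vldlr carried the same 8 letters, TTGCATCA, which is TGATGCAA read on the other strand. The matches began at positions -110, -193, -200, -103 and -23 from the start in Nupr1, Chac1, Vldlr, Pck2 and Asns, and at -66 and -47 in Slc7a11. Vldlr held its match in 1 of its 2 promoter entries. The letters were also present for Atf3, Trib3, Slc1a4, Aars and Gars, and not in the windows of Atf4, Ddit3, Mthfd2 or Slc6a9.

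The libraries held between 73933196 and 153343831 estimated counts. Levels are given in CPM, counts scaled to a common library size with TMM factors of 0.935 to 1.08. Srrm2 itself was at 911, 496 and 449 CPM in Gl2-KD at 24 h in experiments 1, 2 and 3, and at 517, 154 and 200 CPM in Srrm2-KD. At 72 h it was at 962, 479 and 442 CPM in Gl2-KD and at 461, 182 and 217 CPM in Srrm2-KD. It was lower with Srrm2 siRNA in 6 of 6 pairs, with a difference of -1.19 on the log2 scale over both times (SE 0.10, adjusted p = 0.00254, from the quasi-likelihood test of edgeR adjusted by Benjamini-Hochberg). At 24 h and 72 h alone the differences were -1.22 and -1.16 (adjusted p = 0.0663 and 0.0991). The knocked-down levels of experiment 1, 517 and 461 CPM, lay close to the control levels of experiments 2 and 3, 442 to 496 CPM. Experiment 1 stood apart more widely: 16.7% of all genes tested were above, and 13.7% below, every library of the other experiments in all 4 of its libraries. Mitochondrially encoded genes took 3.80 to 4.17% of its counts and 2.32 to 3.36% in the other 8 libraries. The stem cell markers Pou5f1 (1149 to 1956 CPM), Sox2 (357 to 522) and Nanog (306 to 493) were high in all libraries. Of the fibroblast list, whose summed level was 3.89 to 24.8 CPM, lowest in experiment 1 and highest in experiment 3, Thy1 gave 3.58 to 22.9 CPM and Lum at most 0.018. Primitive endoderm markers summed to 2.23 to 4.80 CPM and trophoblast markers to 2.41 to 6.43 CPM.

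The members were expressed over a wide range. Per kilobase of exon, the medians over the 12 libraries were highest for Asns, the asparagine synthetase, at 161 CPM per kb, for Gars, the glycyl-tRNA synthetase, at 137, and for Atf4 at 117. They were lowest for the cystine transporter Slc7a11 at 0.040 CPM per kb, the mitochondrial folate enzyme Aldh1l2 at 0.274, the lipoprotein receptor Vldlr at 0.454 and Atf3 at 0.618. Some members hardly moved between libraries, with a highest level 1.33 times the lowest for the tryptophanyl-tRNA synthetase Wars and 1.41 times for the stress protein gene Sesn2. Others spread widely, with ratios of 10.2 for Atf3, 8.75 for Ddit3, 8.48 for Chac1 and 7.95 for Vldlr. Xpot, the exporter of tRNAs from the nucleus, was listed at 0 in 11 of 12 libraries and at 107 estimated counts in Gl2-KD of 72 h in experiment 3. It was not tested, and its level cannot be read from these values. Ddit3 (chr10:127290774-127296288, plus strand) and Mars1 (chr10:127296221-127311786, minus strand, the methionyl-tRNA synthetase) overlap at their ends. The library kit marked strand, but the sources used here do not say whether the counting used it.

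Srrm2 knockdown gave no call for any member at either time. With the quasi-likelihood test of edgeR and experiment as a block, 0 of 34 members had a Benjamini-Hochberg adjusted p below 0.05 at 24 h or at 72 h, where the share over all genes was 0% as well. Over the mean of both times 0 of 34 were called, beside 0.067% of all genes. Before adjustment, 0 members had p below 0.05 at 24 h (2.62% of all genes), 1 at 72 h (12.9%) and 1 over both times (13.6%). The median member difference was -0.09 on the log2 scale at 24 h, with 28 of 34 members lower, and -0.03 at 72 h, with 19 lower, beside all-gene medians of 0.01 and -0.02. The estimates ran from -0.50 for Vldlr to 0.20 for Eif4ebp1 at 24 h and from -0.36 for Ddit3 to 0.37 for Aldh1l2 at 72 h. Whether the knockdown acted differently at the 2 times was tested too, with 0 of 34 members called (0% of all genes; at an unadjusted p below 0.05, 0 members and 1.64% of all genes). DESeq2 called 24, 535 and 733 genes at 24 h, at 72 h and over both times (0.184%, 3.26% and 4.68% of all genes). For limma-voom these were 2, 4 and 92 genes (0.0103%, 0.0206% and 0.474%). With both methods 0 of 34 members were among them.

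**Figure D1:**
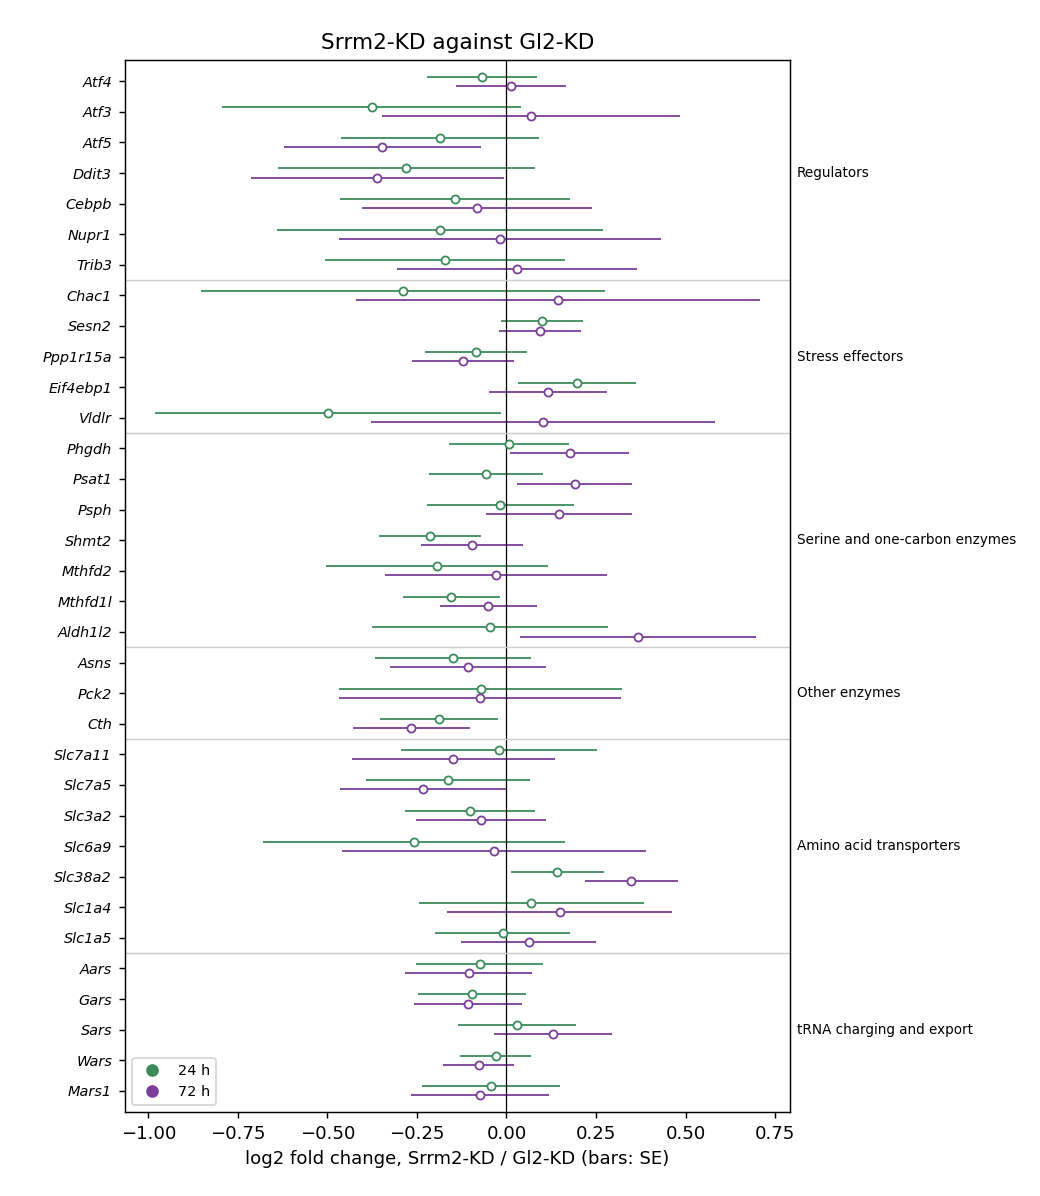
Difference between Srrm2-KD and Gl2-KD (log2 scale, x axis) for each of the 34 members tested, grouped by role, at 24 h (green) and 72 h (purple), with bars of 1 SE. All points are open, since 0 of 34 members had an adjusted p below 0.05 at either time, and the estimates lie between -0.50 and 0.37.

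Atf4 mRNA gave the smallest differences among the regulators. It was at 242, 256 and 404 CPM in Gl2-KD at 24 h (experiments 1, 2 and 3) and at 253, 239 and 351 CPM in Srrm2-KD, and at 72 h at 214, 298 and 402 CPM in Gl2-KD and 179, 297 and 479 CPM in Srrm2-KD. The groups overlapped at both times, and experiment 3 was highest in all of them. The log2 differences were -0.07 at 24 h and 0.01 at 72 h (SE 0.15 each, adjusted p = 1 and 0.981, edgeR).

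The 5 members with the smallest p over both times were not called either. Slc38a2, the sodium-coupled transporter SNAT2 for small neutral amino acids, was at 342, 306 and 331 CPM in Gl2-KD at 24 h and 342, 331 and 404 CPM in Srrm2-KD, and at 72 h at 319, 258 and 213 CPM in Gl2-KD and 369, 294 and 340 CPM in Srrm2-KD. It was higher with Srrm2 siRNA in 3 of 3 experiments at 72 h, while the ranges of the groups overlapped. Its log2 difference was 0.35 at 72 h (SE 0.13, adjusted p = 0.304, unadjusted p = 0.0214, edgeR) and 0.24 over both times (SE 0.09, adjusted p = 0.275). Cth, which makes cysteine from cystathionine, was at 102, 87.5 and 115 CPM in Gl2-KD at 24 h against 101, 84.2 and 77.3 CPM in Srrm2-KD, and at 83.5, 80.2 and 120 CPM against 66.1, 66.3 and 105 CPM at 72 h. Each experiment gave a lower Cth value with Srrm2 siRNA at both times, with a difference over both times of -0.23 (SE 0.12, adjusted p = 0.426, edgeR).

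Shmt2, the mitochondrial serine hydroxymethyltransferase, was at 180, 172 and 166 CPM in Gl2-KD at 24 h against 182, 128 and 139 CPM in Srrm2-KD, and at 136, 126 and 151 CPM against 115, 113 and 161 CPM at 72 h. Atf5, a transcription factor related to ATF4, was at 21.2, 30.8 and 25.3 CPM in Gl2-KD at 24 h against 24.0, 26.3 and 15.4 CPM in Srrm2-KD, and at 16.9, 31.0 and 36.4 CPM against 13.7, 21.3 and 31.2 CPM at 72 h. Both were lower in some experiments and higher in others at 24 h, with differences over both times of -0.15 (SE 0.10, adjusted p = 0.548, edgeR) and -0.27 (SE 0.20, adjusted p = 0.597). Eif4ebp1, whose product restrains cap-dependent translation, was at 96.8, 125 and 155 CPM in Gl2-KD at 24 h against 133, 145 and 139 CPM in Srrm2-KD, and at 70.3, 105 and 156 CPM against 77.1, 130 and 147 CPM at 72 h. It was higher with Srrm2 siRNA in experiments 1 and 2 and lower in experiment 3, with a difference over both times of 0.16 (SE 0.12, adjusted p = 0.607, edgeR).

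The direction within single experiments varied. Srrm2-KD was below Gl2-KD in 3 of 3 experiments at 24 h for 5 members (Mthfd2, Vldlr, Atf3, Cth and Mthfd1l; 15.4% of all genes) and above for Sesn2 alone (17.3%). At 72 h it was below in 3 of 3 for 7 members (Ddit3, Cth, Gars, Aars, Atf5, Slc7a5 and Mars1; 23.1%) and above for 4 (Aldh1l2, Slc38a2, Vldlr and Sars; 18.8%). Without overlap between the groups, 0 members were above or below at 24 h (1.89% and 1.55% of all genes), and at 72 h 1 was above (2.99%) and 0 below (3.67%). It was Aldh1l2, at 2.06, 1.36 and 2.06 CPM in Gl2-KD and 2.53, 2.07 and 2.39 CPM in Srrm2-KD. In experiment 3, 32 of 34 members were lower with Srrm2 siRNA at 24 h (50.3% of all genes; member median -0.31) and 24 were higher at 72 h (47.5%; median 0.13). In experiment 1, 9 were lower at 24 h (46.8%; median 0.05) and 23 at 72 h (51.7%; median -0.07). In experiment 2, 25 and 24 were lower (49.3% and 52.9%; medians -0.10 and -0.15).

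A term for each experiment at each time, so that only siRNA pairs within an experiment were compared, called 3.73% of all genes at 72 h, 5.79% over both times and 0% at 24 h, and 0 of 34 members in each. Slc38a2 came closest, with adjusted p = 0.077 at 72 h and 0.0729 over both times (edgeR), followed over both times by Cth (adjusted p = 0.0827), Ddit3 (0.0986) and Atf5 (0.106).

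Between 24 h and 72 h, with the 3 experiments in 1 fit, 0 of 34 members were called in Gl2-KD cells (1.45% of all genes) and 0 in Srrm2-KD cells (0.551%). Before adjustment 5 members had p below 0.05 in Gl2-KD (16.8% of all genes) and 3 in Srrm2-KD (16.3%). Single experiments moved in different directions, however. Counting a member only where the 72 h level lay on the same side of the 24 h level with both siRNAs, 32 of 34 were lower at 72 h in experiment 1, beside 31.9% of all genes. In experiment 3, 26 of 34 were higher with both siRNAs, beside 37.0% of all genes, and in experiment 2, 17 were higher and 12 lower (36.3% and 35.7%). In 25 of 34 members the level went down with both siRNAs in experiment 1 and up with both in experiment 3, as it did in 12.3% of all genes.

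**Figure D2:**
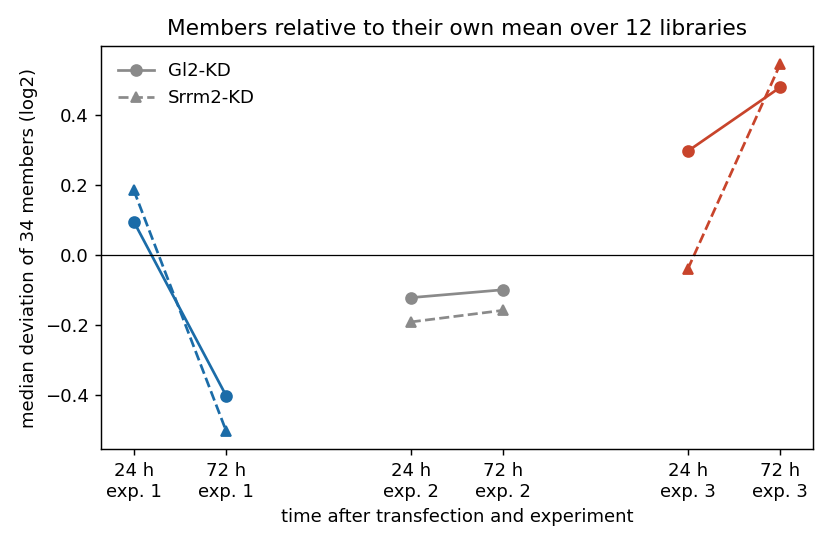
Median deviation of the 34 members from each one's own mean over the 12 libraries (y axis, log2 of CPM plus 0.5), for each library by time (x axis), siRNA and experiment. Experiment 1 goes from 0.10 and 0.19 at 24 h down to -0.40 and -0.50 at 72 h, experiment 3 from 0.30 and -0.04 up to 0.48 and 0.55, and experiment 2 stays between -0.19 and -0.10.

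The change was therefore also fitted within each experiment, after these values had been seen, in a model with a term for each experiment at each time and for the siRNA at each time. The spread it uses is that between the siRNA pairs of an experiment. The labels give an experiment number for each library, and no culture, medium lot or processing run. The libraries of an experiment may share any of these, so that a difference between experiments cannot be told apart from differences in them. An F test of whether the 72 h change differed between the 3 experiments was added because of the directions just described, so that it restates them in numbers and is no independent evidence of them. It sets the differences between single experiments against the spread of siRNA pairs inside an experiment, and says nothing of how far repeat experiments would differ. By this measure it called 22 of 34 members (64.7%), beside 10.2% of all genes. Before adjustment 30 members had p below 0.05, beside 30% of all genes. The count rested most on experiment 1, without which the comparison of experiments 2 and 3 called 1 member, Ddit3 (1.74% of all genes). Without experiment 3 it called 11 (3.13% of all genes) and without experiment 2 it called 18 (4.03%). Leaving out a single library gave 7 members without Srrm2-KD at 24 h of experiment 3 (1.38% of all genes), 9 without Gl2-KD at 24 h of experiment 2 (1.42%) and 12 without its Srrm2-KD partner (2.2%). It gave 10 without Srrm2-KD of experiment 1 at 24 h (2.41%) or at 72 h (4.58%) and 13 without Gl2-KD at 72 h of experiment 1 (4.41%).

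Calls within an experiment (adjusted p below 0.05, edgeR) use the same spread of siRNA pairs. They too say nothing of how far repeat experiments would differ. By this rule 19 of 34 members fell in experiment 1 and 0 rose (3.95% of all genes fell and 3.08% rose). In experiment 2, 5 rose and 2 fell (10.2% and 9.2% of all genes), and in experiment 3, 10 rose and 1 fell (6.95% and 6.66%). The member medians were -0.55, 0.07 and 0.36 on the log2 scale, and the all-gene medians 0.02, 0.01 and 0.01. With library totals in place of TMM factors the medians were -0.60, 0.02 and 0.38. In experiment 1 the count of members called was 3 without its Srrm2-KD library at 24 h (0.974% of all genes called). It was 4 without Srrm2-KD at 72 h (1.33%) and 5 without Gl2-KD at 72 h (2.21%). It was 12 without either 24 h library of experiment 2 (3.79% and 3.64%) and 10 without experiment 2 as a whole (2.39%). In experiment 2 it was 0 without its Gl2-KD library at 24 h (2.17%), 4 without Srrm2-KD at 24 h (5.63%), 2 without Srrm2-KD at 72 h (6.65%) and 11 without either 24 h library of experiment 1 (18.2% and 18.4%). In experiment 3 it was 2 without its Srrm2-KD library at 24 h (0.248%), 3 without Srrm2-KD at 72 h (8.76%), 5 without Gl2-KD at 72 h (1.89%), 7 without either 24 h library of experiment 2 (7.59% and 7.82%) and 5 without experiment 2 as a whole (6.87%).

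**Figure D3:**
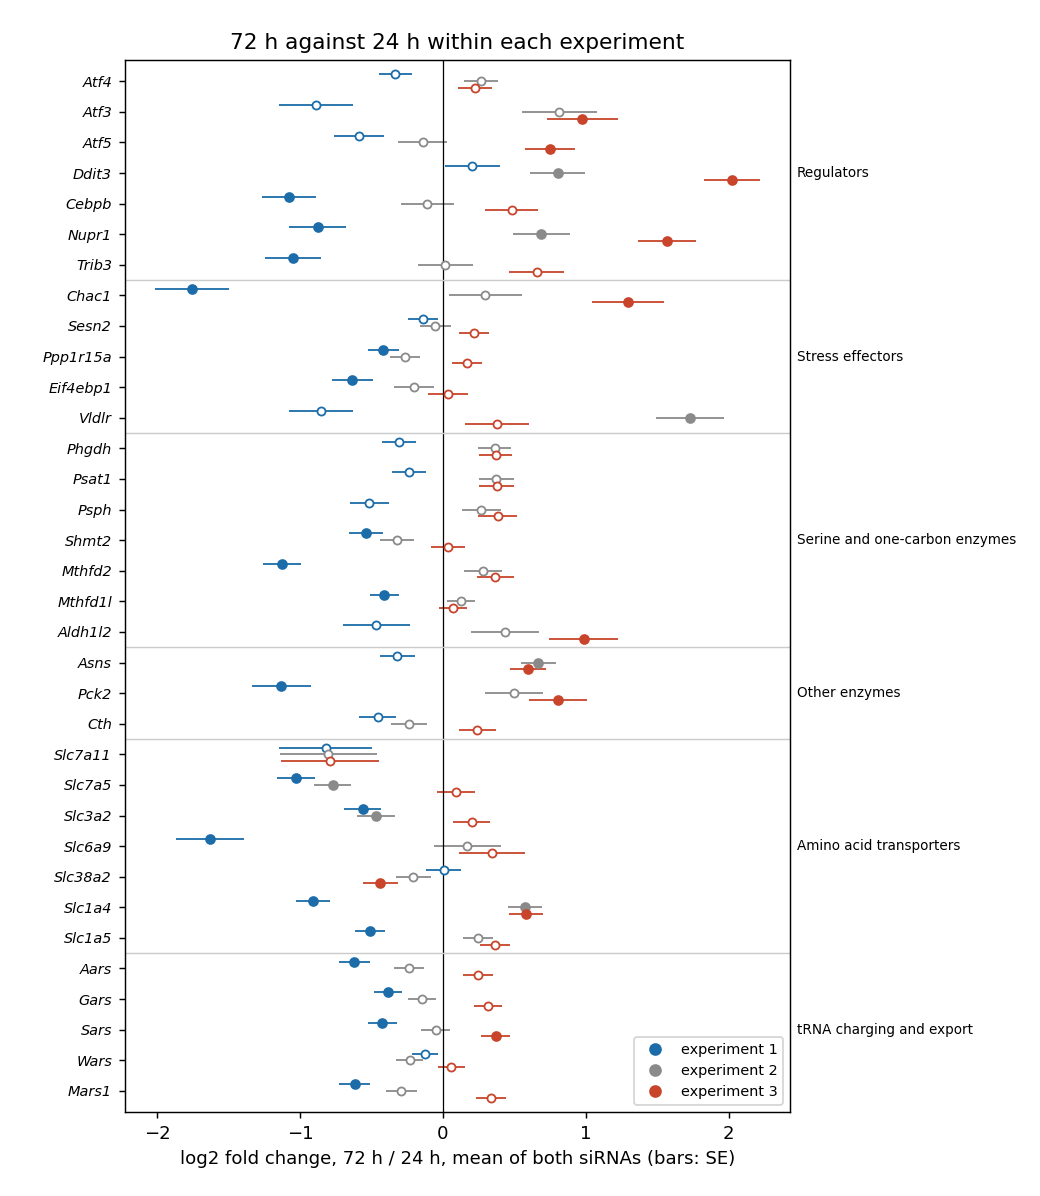
Change from 24 h to 72 h (log2 scale, x axis) of the 34 members by role, fitted within experiment 1 (blue), experiment 2 (grey) and experiment 3 (red), with bars of 1 SE and filled points where the adjusted p was below 0.05. The blue points lie to the left of 0 for 32 members and the red points to the right for 32.

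Among the regulators, 6 of 7 differed between experiments in this fit, beside 10.2% of all genes. Atf4 did not, but passed under 8 of 24 alternatives (adjusted p from 0.00487 to 0.838). Nupr1, a small chromatin-associated stress protein, was at 23.1 and 25.8 CPM in Gl2-KD and Srrm2-KD at 24 h and at 13.1 and 13.9 CPM at 72 h in experiment 1, at 18.5 and 15.8 CPM and then 26.4 and 28.8 CPM in experiment 2, and at 35.6 and 19.0 CPM and then 83.3 and 74.0 CPM in experiment 3. It fell by 0.88 on the log2 scale in experiment 1 (SE 0.20, adjusted p = 0.0322, edgeR) and rose by 0.69 and 1.57 in experiments 2 and 3 (SE 0.20 each, adjusted p = 0.0385 and 0.00451). Its 24 h and 72 h levels did not overlap within any experiment, and the test between experiments gave an adjusted p of 0.00816. The calls in experiments 1 and 2 were each lost under 8 of 23 alternatives (adjusted p up to 0.3 and 0.294), among them the removal of 3 of the 4 libraries of experiment 1 for the first and of any of the 4 of experiment 2 for the other, while the call in experiment 3 was lost under 0. Ddit3, the CHOP transcription factor of prolonged stress, was at 7.30 and 7.76 CPM and then 8.98 and 8.60 CPM in experiment 1, at 11.3 and 8.79 CPM and then 19.4 and 15.6 CPM in experiment 2, and at 17.2 and 9.54 CPM and then 63.9 and 43.6 CPM in experiment 3. It rose by 0.80 in experiment 2 and by 2.02 in experiment 3 (SE 0.19 and 0.20, adjusted p = 0.0182 and 0.00192, edgeR), with 0.21 in experiment 1 (adjusted p = 0.602), and differed between experiments (adjusted p = 0.0152). Its call in experiment 2 was lost under 5 of 23 alternatives (adjusted p up to 0.182), which include leaving out any library of that experiment, and its call in experiment 3 under 0. The call between experiments was lost under 3 of 24, with no siRNA term, without Srrm2-KD at 24 h of experiment 3 and without experiment 3 as a whole (adjusted p up to 0.183).

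Trib3, a pseudokinase that damps ATF4 and CHOP, fell in experiment 1 (log2 change -1.05, adjusted p = 0.0143, edgeR) and was at 0.02 and 0.66 in the other two. Cebpb, a partner of ATF4 on the composite element, fell in experiment 1 as well (-1.08, adjusted p = 0.0114) and was at -0.11 and 0.48. Atf3 and Atf5 rose in experiment 3 (0.97 and 0.75, adjusted p = 0.0321 and 0.0237, edgeR), and stood at -0.89 and -0.58 in experiment 1, where neither passed. Nor did they pass in experiment 2. There the single log2 ratios of 72 h to 24 h in Gl2-KD and Srrm2-KD were 0.73 and 0.88 for Atf3, and 0.01 and -0.30 for Atf5. The mRNA of Atf4 gave -0.33, 0.27 and 0.22 (SE 0.12 each), and missed the threshold in each experiment (adjusted p = 0.13, 0.143 and 0.236) and between them (0.0652).

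Of the 5 stress effectors, Chac1 and Vldlr differed between experiments (10.2% of all genes). Chac1, a glutathione-degrading enzyme, was at 32.1 and 32.8 CPM at 24 h and 11.4 and 8.17 CPM at 72 h in experiment 1 (Gl2-KD and Srrm2-KD), at 13.6 and 10.1 CPM and then 15.2 and 13.7 CPM in experiment 2, and at 32.2 and 16.6 CPM and then 46.4 and 69.3 CPM in experiment 3. This was the largest fall among the 34 members in experiment 1, -1.76 on the log2 scale (SE 0.26, adjusted p = 0.00551, edgeR), against 0.30 and 1.30 in experiments 2 and 3 (SE 0.25 each, adjusted p = 0.455 and 0.0136), and the difference between experiments had an adjusted p of 0.00846. The call in experiment 1 was lost without either of its Srrm2-KD libraries (adjusted p up to 0.0671), and that in experiment 3 under 3 of 23 alternatives (up to 0.206), among them without either of its Srrm2-KD libraries. Vldlr was at 8.56 and 7.39 CPM and then 4.21 and 4.66 CPM in experiment 1, at 1.36 and 1.22 CPM and then 4.28 and 4.32 CPM in experiment 2, and at 9.73 and 4.49 CPM and then 8.16 and 9.49 CPM in experiment 3. It rose in experiment 2 alone (1.73, SE 0.24, adjusted p = 0.00183, edgeR), with -0.85 in experiment 1 (adjusted p = 0.053) and 0.38 in experiment 3 (0.296), and differed between experiments (adjusted p = 0.0101). Under 11 of 23 alternatives the estimate in experiment 1 passed too, the rise in experiment 2 was lost without its Gl2-KD library at 24 h (adjusted p = 0.0535), and the call between experiments was lost without experiment 1 or 2. Ppp1r15a, the stress-induced subunit of the eIF2alpha phosphatase, and Eif4ebp1 fell in experiment 1 (-0.42 and -0.63, adjusted p = 0.048 and 0.0293) and did not pass between experiments. Sesn2 passed in none (-0.14, -0.05 and 0.22).

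**Figure D4:**
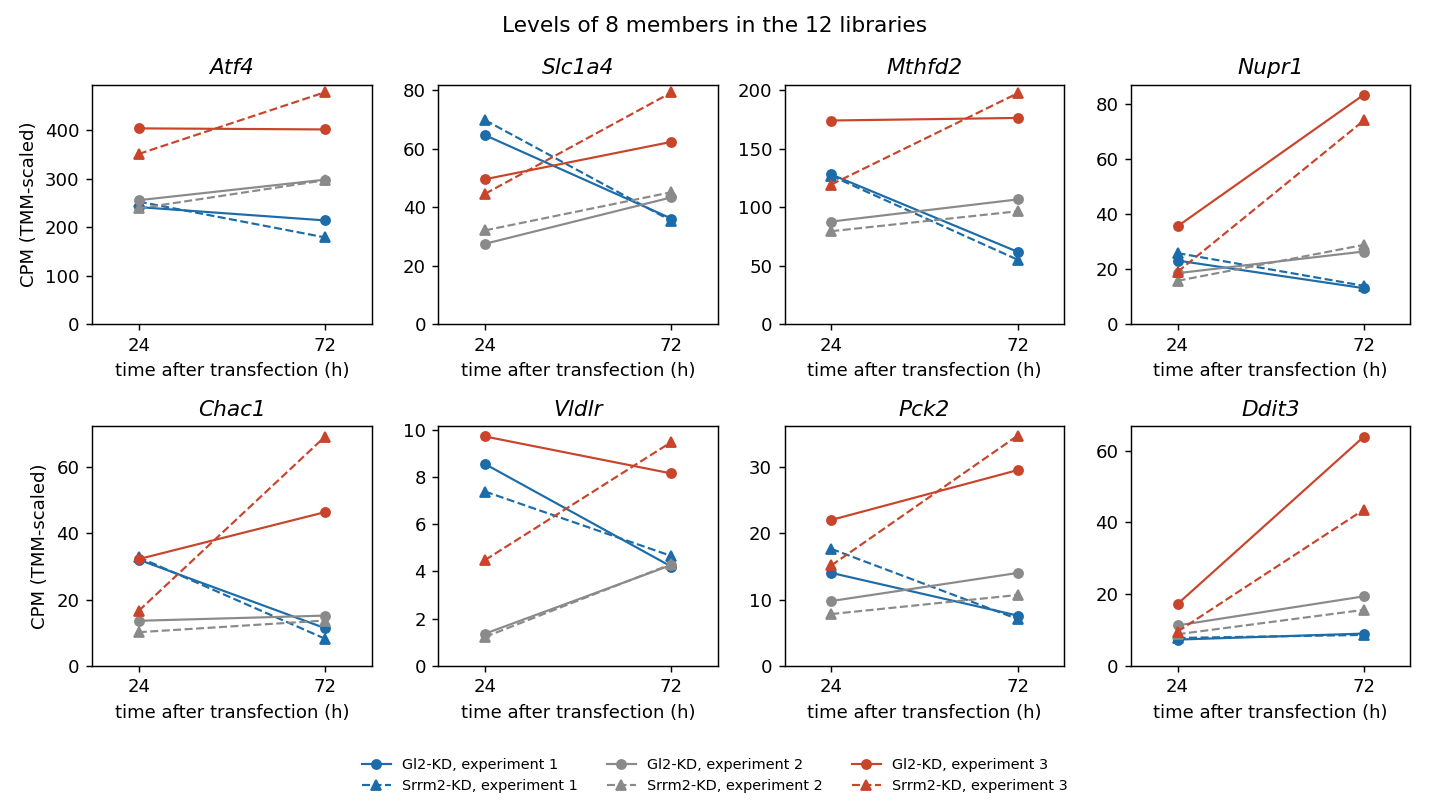
Levels (CPM, linear y axes from 0) at 24 h and 72 h of Atf4 and 7 members that differed between experiments, with lines joining libraries of the same experiment (colour) and siRNA (solid circles Gl2-KD, dashed triangles Srrm2-KD). The blue lines of experiment 1 go down for Slc1a4, Mthfd2, Nupr1, Chac1, Vldlr and Pck2 with both siRNAs, and Ddit3 reaches 63.9 and 43.6 CPM in experiment 3.

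Serine is made from a glycolytic intermediate by Phgdh, Psat1 and Psph, and mitochondrial Shmt2, Mthfd2 and Mthfd1l then pass its carbon to folate. Of these 6 and Aldh1l2, 3 differed between experiments, beside 10.2% of all genes: Phgdh (adjusted p = 0.0416), Psph (0.0329) and Mthfd2 (0.00746, edgeR). Mthfd2 was at 128 and 127 CPM at 24 h and 62.0 and 55.2 CPM at 72 h in experiment 1, at 87.9 and 79.6 CPM and then 107 and 96.7 CPM in experiment 2, and at 174 and 120 CPM and then 177 and 198 CPM in experiment 3. The fall in experiment 1 was -1.13 (SE 0.13, adjusted p = 0.00261, edgeR), while 0.28 and 0.37 in experiments 2 and 3 did not pass (SE 0.13 each, adjusted p = 0.164 and 0.0915). The fall was called under all 23 alternatives, and the change in experiment 3 passed under 4 of them. Shmt2 (-0.54) and Mthfd1l (-0.41) fell in experiment 1 too, and Aldh1l2 rose in experiment 3 (0.99, adjusted p = 0.0279). All 7 had negative estimates in experiment 1 and positive ones in experiment 3. Phgdh was the one member below the other 8 libraries in all 4 libraries of experiment 1 (13.7% of all genes), at 85.5 to 114 CPM against 157 to 311 CPM.

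Among the other enzymes, Asns was at 440 and 442 CPM at 24 h and 399 and 312 CPM at 72 h in experiment 1, at 319 and 303 CPM and then 503 and 486 CPM in experiment 2, and at 508 and 375 CPM and then 659 and 664 CPM in experiment 3. It rose by 0.67 and 0.60 in experiments 2 and 3 (SE 0.12 each, adjusted p = 0.00608 and 0.0159, edgeR) and was at -0.32 in experiment 1 (adjusted p = 0.158), and differed between experiments (0.0165). Pck2, the mitochondrial phosphoenolpyruvate carboxykinase, was at 14.0 and 17.7 CPM and then 7.57 and 7.06 CPM in experiment 1, at 9.77 and 7.81 CPM and then 14.0 and 10.7 CPM in experiment 2, and at 22 and 15.1 CPM and then 29.5 and 34.8 CPM in experiment 3. Its fall of -1.13 in experiment 1 and rise of 0.81 in experiment 3 passed (SE 0.20 each, adjusted p = 0.0131 and 0.0298, edgeR), 0.50 in experiment 2 did not (adjusted p = 0.12), and the difference between experiments did (0.0125). The call in experiment 3 was lost under 7 of 23 alternatives (adjusted p up to 0.364) and that in experiment 1 under 3 (up to 0.119), which include in each case leaving out either Srrm2-KD library or the 72 h Gl2-KD library of that experiment, and the change in experiment 2 passed under 3. Cth passed neither within an experiment nor between them (-0.46, -0.24 and 0.24).

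Of the 7 amino acid transporters, Slc7a5, Slc3a2, Slc6a9, Slc1a4 and Slc1a5 fell in experiment 1 (3.95% of all genes), and these 5 also differed between experiments (10.2%). Slc1a4, a carrier of serine, alanine and cysteine, had the smallest p of all members between experiments (adjusted p = 0.00706, edgeR). It was at 64.6 and 69.7 CPM at 24 h and 36.1 and 35.3 CPM at 72 h in experiment 1, at 27.5 and 32.1 CPM and then 43.3 and 45.1 CPM in experiment 2, and at 49.5 and 44.6 CPM and then 62.3 and 79.2 CPM in experiment 3. The times did not overlap in any experiment, and the changes of -0.91, 0.57 and 0.58 all passed (SE 0.12 each, adjusted p = 0.00381, 0.00998 and 0.0153). The call was lost under 0 of 23 alternatives in experiment 1, under 3 in experiment 2 (without Gl2-KD at 24 h or either 72 h library of that experiment, adjusted p up to 0.191) and under 2 in experiment 3 (without either Srrm2-KD library, up to 0.252). Slc6a9, the glycine transporter GlyT1, was at 13.4 and 13.6 CPM and then 4.18 and 4.60 CPM in experiment 1, at 5.33 and 4.04 CPM and then 6.24 and 4.16 CPM in experiment 2, and at 13.3 and 8.47 CPM and then 11.7 and 15.5 CPM in experiment 3. It fell by 1.63 in experiment 1 (SE 0.24, adjusted p = 0.00512, edgeR), with 0.17 and 0.35 in the others (adjusted p = 0.66 and 0.353) and an adjusted p of 0.0153 between experiments. The fall was lost without Srrm2-KD at 24 h or Gl2-KD at 72 h of experiment 1 (adjusted p up to 0.0637), and the call between experiments without these, without Srrm2-KD at 24 h of experiment 3 and without experiment 1 (up to 0.78).

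The heteromeric leucine carrier Slc7a5 and its heavy chain Slc3a2 were the 2 members called lower in experiment 2 (9.2% of all genes). Estimates there were below 0 for 16 of 34 members. Slc7a5 was at 303 and 316 CPM at 24 h and 166 and 140 CPM at 72 h in experiment 1, at 222 and 188 CPM and then 142 and 100 CPM in experiment 2, and at 236 and 179 CPM and then 221 and 217 CPM in experiment 3. It fell in experiments 1 and 2 (-1.03 and -0.77, SE 0.13 each, adjusted p = 0.00368 and 0.00444, edgeR) and was at 0.09 in experiment 3. Slc3a2 also fell in both (-0.56 and -0.47, adjusted p = 0.0332 and 0.0329) and was at 0.20 in experiment 3. Slc7a11, which carries 2 matches of the composite element, gave the same estimate in all experiments, -0.82, -0.80 and -0.79, at levels of 0.264 to 1.06 CPM and with SEs of 0.33, 0.34 and 0.34 (adjusted p = 0.171, 0.129 and 0.154, and 1 between experiments). In experiment 3, Slc38a2 was the one member called lower (-0.44, SE 0.12, adjusted p = 0.0461), beside the larger estimate of Slc7a11 that was not called, with 0.01 and -0.21 in experiments 1 and 2.

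Of the tRNA synthetases, Aars, Gars, Sars and Mars1 differed between experiments (adjusted p = 0.022, 0.0309, 0.0239 and 0.0165, edgeR), beside 10.2% of all genes. They fell in experiment 1 by log2 changes of -0.62, -0.39, -0.43 and -0.62, where 3.95% of all genes fell. In experiment 3 they were at 0.25, 0.31, 0.37 and 0.34, of which the change of Sars passed (adjusted p = 0.0403). Wars was the exception, at -0.12, -0.23 and 0.06 (0.286 between experiments). In experiment 2 all 5 synthetases tested had estimates below 0, from -0.29 to -0.05 (median -0.23), with 0 called (19.4% of all genes).

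Levels were described by experiment as well, with no test, since the 4 libraries of an experiment are not replicates of it. Experiment 3 had the highest mean for 26 of 34 members, beside 33.6% of all genes, experiment 1 for 6 (40.6%) and experiment 2 for 2 (25.8%). In 4 members, Atf4, Atf3, Psph and Sars, all 4 libraries of experiment 3 lay above the other 8 (3.78% of all genes), and in 0 members did those of experiment 1 (16.7%). Mitochondrial share, summed Thy1-dominated fibroblast markers and the general distance of experiment 1 differed between experiments along with these levels, and their part in the result was not tested.

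Further genes of the pathway were counted beside the members. Of 20 more genes known as ATF4 targets, 12 differed between experiments (60%, beside 10.2% of all genes). In experiment 1, 10 fell and 1 rose (3.95% and 3.08% of all genes). In experiment 2, 5 rose and 2 fell (10.2% and 9.2%), and in experiment 3, 6 rose and 1 fell (6.95% and 6.66%). Their medians were -0.36, 0.11 and 0.19. The 3 with the smallest p were Stc2, a secreted glycoprotein (-0.77, 1.10 and -0.13, adjusted p = 0.00712, edgeR), the proline synthesis enzyme Aldh18a1 (-1.29, -0.26 and 0.44, adjusted p = 0.00804) and the cationic amino acid transporter Slc7a1 (-1.62, -0.51 and 0.10, adjusted p = 0.0102). In the knockdown comparisons with experiment as a block, 0 of these 20 were called at 24 h, at 72 h or over both times. With experiment and time point combined as the block, 1 was called, Stc2 at 72 h, higher with Srrm2 siRNA (0.73, SE 0.12, adjusted p = 0.0244, edgeR; 3.73% of all genes called). Ddit4, an inhibitor of mTORC1, had 72 h levels above those of 24 h with both siRNAs in 3 of 3 experiments, with log2 changes of 1.38 in Srrm2-KD (adjusted p = 0.0445) and 1.03 in Gl2-KD (0.0524, SE 0.23 each). Among the 16 with a promoter window, 7 (43.8%) held the composite element, beside 4.51% of all genes with a window. These too were picked as ATF4 targets, so that this share is no test. Of the 15 genes of the eIF2alpha kinases and the eIF2 cycle, 2 differed between experiments (13.3%, near the 10.2% of all genes). They were Eif2ak1, a kinase of eIF2alpha (0.20, -0.34 and -0.47, adjusted p = 0.0181, edgeR), and Impact, an inhibitor of GCN2 (0.47, -0.11 and -0.16, adjusted p = 0.0205). Of 8 other cytosolic tRNA synthetases, 1 differed (12.5%, again near the share of all genes), Dars (0.10, 0.53 and -0.14, adjusted p = 0.0404, edgeR). In experiment 1, 0 were called (7.03% of all genes). With experiment as a block 0 genes of either list were called for the knockdown. With experiment and time point combined as the block 1 was, the valyl-tRNA synthetase Vars, lower over both times (-0.28, SE 0.06, adjusted p = 0.04, edgeR; 5.79% of all genes called).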

How the data were processed

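PolyA+ RNA-seq of 12 libraries was used: 4 groups (Gl2-KD and Srrm2-KD at 24 h and 72 h) of 3 experiments each. The deposited table holds estimated counts per gene, made by the authors with kallisto 0.46.1 from paired 100-bp reads (build mm10 per the labels), summed to genes of GENCODE. Here the counts were rounded, and symbols and exon lengths came from GENCODE M21 (42156 IDs matched, 294 did not). Genes were kept with filterByExpr (minimum count 10, total 15), scaled by TMM and tested with edgeR 4.0.16 (R 4.3.3, glmQLFit and glmQLFTest, adjusted p below 0.05 by Benjamini-Hochberg over all 19410 genes), with the experiment as a block. The study's own covariate, the day of RNA processing, is not in the labels. Libraries of the same experiment number deviated together across genes (18 pairs, r = 0.55 to 0.92; 36 pairs of different number, r = -0.79 to 0.45), and the design text calls the replicates independent experiments, so the number pairs them. The fit within experiments was added after the data had been seen. Alternatives used DESeq2 1.42.0 and limma 3.58.1. Scripts were tested on simulated data. The members and lists were chosen with earlier results of these data known. The genes printed in full were Srrm2, Atf4, up to 8 called members by smallest p and, for the knockdown, the 5 with the smallest p over both times. The other lists (eIF2 cycle, ATF6 and XBP1, further ATF4 targets, other tRNA synthetases, NRF2, mitochondrial and cell type markers) are given as counts and medians. Promoters came from RefSeq (GRCm38.p6). Eif4ebp1, Aldh1l2, Cth, Slc7a5, Slc1a5 and Wars had no window in that table.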

Additional observations from a re-analysis of the deposited data

Results flagged for a closer look

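The change between 24 h and 72 h differed between the 3 experiments for 22 of 34 members, beside 10.2% of all genes. This was by edgeR's F test with Benjamini-Hochberg adjustment, and is why these results are listed for a closer look. The count fell to 1 without experiment 1 (1.74% of all genes). It fell to 7 without the Srrm2-KD library at 24 h of experiment 3 (1.38%). The adjusted p was 0.00706 for Slc1a4, 0.00746 for Mthfd2, 0.00816 for Nupr1 and 0.00846 for Chac1. It was 0.0101 for Vldlr, 0.0125 for Pck2, 0.0152 for Ddit3 and 0.0153 for Slc6a9. The fit was made after the data had been seen. The libraries of an experiment may share a culture, a medium lot and a processing run, and differences between experiments cannot be told apart from these.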

How the results depend on the processing

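The count of members called for the knockdown (at 24 h, at 72 h, over both times and between times) and for time in Gl2-KD was 0 under every alternative run (24 to 26 each), with no replicate block included. The replicate block for each experiment and time point was run for the first 3 of these and gave 0 as well. For time in Srrm2-KD it was 0 to 1 over the leave-outs. The 1 was Asns without experiment 1 (0.711% of all genes) and Slc7a5 without experiment 3 (0.455%). The alternatives for changes within experiments were chosen after seeing the data. The count of 22 members that differed between experiments (10.2% of all genes) became 12 with no siRNA term (2.21%) and 1 to 24 over the leave-outs (1.38 to 10.1%), and was 22 to 30 under the other settings (8.93 to 29%). The count of 19 for experiment 1 (7.03%) became 11 with no siRNA term (2.75%) and 3 to 20 over single libraries (0.974 to 8.26%) and 10 to 22 over experiments left out (2.39 to 7.14%). For experiment 2 the count of 7 (19.4%) became 14 with DESeq2 (27.1%), 11 unfiltered (13.7%), 12 where each library had to hold 10 counts (29.7%) and 0 to 11 over the leave-outs (2.17 to 20.6%). For experiment 3 the count of 11 (13.6%) became 19 with DESeq2 (24.3%), 17 with limma-voom (17.1%), 18 unfiltered (10.6%), 19 with that stricter filter (23.3%), 5 with no siRNA term (5.88%) and 2 to 15 over the leave-outs (0.248 to 14.9%). The cause of these shifts was not tested. The leave-outs held fewer libraries, and the stricter filter kept fewer genes. The difference of Atf4 at 72 h changed sign with limma-voom (-0.0072), with the block for each experiment and time point (-0.0035) and with the 72 h libraries alone (-0.00091). Over the leave-outs it ran from -0.256 to 0.0200 at 24 h, -0.137 to 0.185 at 72 h (-0.122 without experiment 3) and -0.132 to 0.0540 over both times. Signs also turned over the leave-outs for Cth (-0.361 to 0.0296), Atf5 (-0.560 to 0.140) and Eif4ebp1 (-0.0358 to 0.386) at 24 h, for Shmt2 (-0.281 to 0.0119) and Eif4ebp1 (-0.0195 to 0.289; -0.0026 without experiment 2) at 72 h, and for the time change of Ddit3 in experiment 1 (-0.108 to 0.579), Slc6a9 in experiment 2 (-0.304 to 0.546) and Vldlr in experiment 3 (-0.0607 to 0.862). Srrm2 passed at 24 h under 8 alternatives and at 72 h under 10, and over both times lost its call with no replicate block (adjusted p = 1, edgeR), without experiment 2 and without experiment 3, with estimates that stayed below 0. Members highest in experiment 3 numbered 22 to 25 under the other scalings. At these depths, counts limit the precision most for Slc7a11 among the members tested.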

Other observations

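Neighbouring stress pathways were counted in the same fit within experiments. Of 19 genes of the ATF6 and XBP1 branch of the unfolded protein response, which raises the folding capacity of the endoplasmic reticulum, 7 differed between experiments (36.8%, beside 10.2% of all genes). In experiment 1, 6 rose and 2 fell (3.08% and 3.95% of all genes). In experiment 2, 0 rose and 5 fell (10.2% and 9.2%), and in experiment 3, 1 rose and 1 fell (6.95% and 6.66%). The medians were 0.26, -0.21 and 0.01. The chaperone Hspa5 (BiP) rose in experiment 1 by 0.72 on the log2 scale (adjusted p = 0.00375, edgeR) and was at -0.23 and -0.22 in experiments 2 and 3, and the disulfide isomerase Pdia4 changed in all 3 experiments (0.48, -0.30 and -0.42, adjusted p = 0.0112, 0.0322 and 0.0137). Herpud1, a component of ER-associated degradation, had the opposite signs in experiments 1 and 3 (-0.79, -0.21 and 0.67, adjusted p = 0.0188, 0.402 and 0.0248). The direction of Hspa5 and Pdia4 in experiment 1 was opposite to that of the 19 members that fell there.

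Of 12 targets of NRF2, the regulator of oxidative stress genes, 8 differed between experiments (66.7%, beside 64.7% of the members and 10.2% of all genes). In experiment 1, 2 rose and 0 fell (3.08% and 3.95% of all genes). In experiment 2, 0 rose and 7 fell (10.2% and 9.2%), and in experiment 3, 0 rose and 6 fell (6.95% and 6.66%). The medians were 0.15, -0.30 and -0.34. Sulfiredoxin Srxn1 (0.33, -0.65 and -0.26, adjusted p between experiments 0.0142, edgeR), the pentose phosphate enzyme Pgd (0.16, -0.27 and -0.55, 0.015) and Gclc, a subunit of the enzyme for the first step of glutathione synthesis (0.35, -0.32 and -0.27, 0.0164) had the smallest p. Of the 13 mitochondrially encoded genes 3 differed between experiments (23.1%), and of the 8 stem cell markers 1 did (12.5%, near the 10.2% of all genes). In the knockdown comparisons at 24 h, at 72 h and over both times, with experiment as a block, 0 genes of the ATF6 and XBP1, NRF2 and mitochondrial lists were called, and 12 of 13 mitochondrial genes had estimates above 0 (median 0.22 over both times, 7 with an unadjusted p below 0.05, beside 13.6% of all genes). With experiment and time point combined as the block, 5 of 13 mitochondrial genes rose over both times (mt-Nd1, mt-Nd2, mt-Nd4, mt-Nd4l and mt-Cytb, 0.21 to 0.29, smallest adjusted p = 0.0182, edgeR), beside 5.79% of all genes, and 0 genes of the ATF6 and XBP1 and NRF2 lists were called.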
